A study of Mus musculus with 4 samples.

Results

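Aquaporins are small channel proteins that let water, and in some members glycerol or hydrogen peroxide, pass through membranes along a gradient. The family covers 12 genes in the deposited tables of 22322 genes, and 5 of them, Aqp1, Aqp4, Aqp7, Aqp8 and Aqp11, are described here. These are the rows that carry the symbols of the 5 members. The set was chosen by the measured rise of Aqp8 mRNA in these libraries after pressure overload, so the values of Aqp8 are given as a description without a test.

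The libraries came from cardiomyocytes of mouse hearts, with 2 libraries after a sham operation and 2 after transverse aortic constriction (TAC), a narrowing of the aorta that loads the left ventricle with pressure. Per the methods of the study, male mice were operated at an age of 2 months, hearts were taken 14 weeks later, and cells were released by perfusing the heart with enzymes. The methods also call the mice 14-week-old, so the age at collection is not settled by the text. Each library holds cells of a single heart, and no strain or genetic change is given in the sources used here. The preparation is a bulk sample, so fewer cells of a type and less RNA per cell cannot be told apart.

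The members do different work. Aqp1 is the classical water channel of capillary endothelium and red blood cells. Aqp4 is a water channel best known from astrocytes, held in place by syntrophin within the dystrophin complex, and is also present on muscle fibres. Aqp7 carries glycerol as well as water and is known for glycerol release from fat cells. Aqp8 passes water and hydrogen peroxide, and has been described in the plasma membrane and in mitochondria. Aqp11 is a distant relative found on membranes inside the cell.

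The libraries held 24237777 to 32118323 counts, and the protein-coding mitochondrial genes took 39.8% and 40.8% of them in sham and 47.4% and 40.3% in TAC. The 12 cardiomyocyte markers, among them myosin, troponin and titin genes, were found in every library and summed to 80640 to 89509 CPM (counts relative to library size, scaled by TMM factors that balance the composition of the libraries). Of the 12499 genes that passed the filter on low counts, 626 were called at an adjusted p under 0.05 by the edgeR quasi-likelihood test, which is 5.01%. Of these, 322 were higher and 304 lower in TAC, against 105 and 423 with total-count scaling. The cell fraction was not free of other cells, and the marker levels that bear on the aquaporins are given beside them.

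All 5 members passed the low-count filter. In TAC, 4 were lower and Aqp8 was higher, and the median log2 fold change of the 5 was −0.74, against −0.01 over all genes tested. Both TAC libraries lay outside both sham libraries in CPM for all 5 members, which was also the case for 60.1% of all genes tested. Of the 4 members other than Aqp8, Aqp4 and Aqp7 were called and Aqp1 and Aqp11 were not. The members were picked with this comparison known, so nothing is read from that count against the 5.01% of all genes.

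Aqp8 (ENSMUSG00000030762) lies at chr7:123462291-123468004 on the plus strand of GRCm38, the build that mm10 is a name for, with 6 exons in its longest transcript. Its level was 6.48 CPM in the library sham 1 and 5.77 in sham 2, against 26.8 in TAC 1 and 21.1 in TAC 2. The lowest TAC library was thus 3.26 times the highest sham library, while the sham libraries differed by 1.12 times and the TAC libraries by 1.27 times. These levels rested on 205, 166, 748 and 516 counts. The 95% exact Poisson intervals reflect the error of counting alone and ran from 4.92 to 7.43 CPM across the sham libraries and from 19.3 to 28.8 CPM across the TAC libraries. As group means ± SD (n = 2 per group), Aqp8 was at 6.12 ± 0.502 CPM in sham and at 24.0 ± 4.05 CPM in TAC. The log2 fold change was 1.97 ± 0.15 (SE), or 3.91-fold. This SE comes from the fit over all genes, and no test is read from it. Among all genes tested, 32 had a larger log2 fold change. In FPKM (fragment counts scaled by transcript length and library size, so that levels of different genes can be compared) Aqp8 went from 4.79 and 4.04 in sham to 15.7 and 14.4 in TAC.

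**Figure D1:**
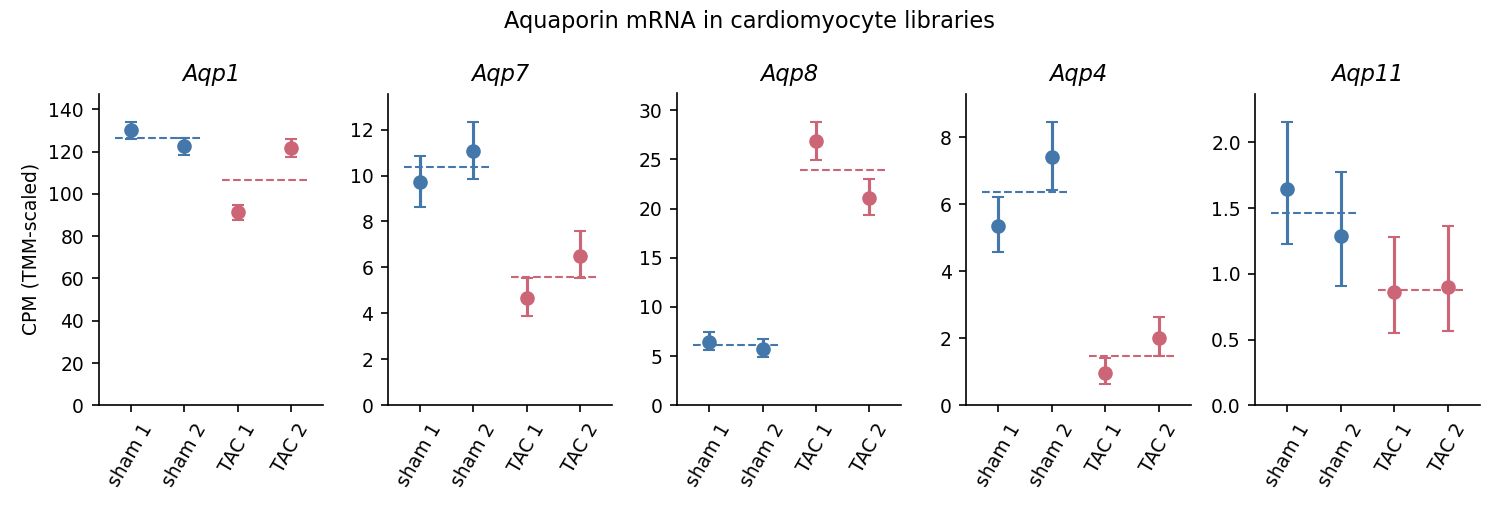
CPM of each aquaporin in each library, 1 panel per gene with its own axis from 0, with sham in blue and TAC in red. Bars are 95% exact Poisson intervals of the counts and dashed lines are group means; the Aqp8 libraries sit near 6 CPM in sham and above 21 CPM in TAC, while Aqp4 goes from 6.37 to 1.49 CPM.

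Because the change of Aqp8 is the one that marks the set, the bases around its annotated start are shown. The window runs from 250 bases before to 50 bases after the RefSeq start, at chr7:123462044-123462343 of GRCm38.p6, plus strand, with capitals on the single match found.
Aqp8 promoter: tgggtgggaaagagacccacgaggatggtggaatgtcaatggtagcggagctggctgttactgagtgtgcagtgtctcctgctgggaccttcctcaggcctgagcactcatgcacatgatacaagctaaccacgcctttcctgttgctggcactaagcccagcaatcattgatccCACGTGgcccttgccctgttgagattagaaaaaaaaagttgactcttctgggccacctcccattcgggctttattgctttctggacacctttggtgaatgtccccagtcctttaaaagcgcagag
The match is CACGTG, the E-box that circadian clock factors and other bHLH proteins can bind, and its first base is 75 bases before the start (position −75). The motif reads the same on both strands and was present in 7.15% of 32851 promoter windows of this length. Of 5 other motifs searched on both strands, the Aqp8 window held none. The TATA box, searched as TATAAA, occurred in 13.6% of all windows. The AP-1 motif, TGANTCA, was found in 7.81% of them and the cyclic AMP response element, TGACGTCA, in 1.79%. The GC box, GGGCGG, occurred in 35.7% and the CCAAT box, searched by these letters, in 37.4%. The single Aqp1 window held 1 of the 6 motifs, a GC box at position −190, and the windows of Aqp7 and Aqp11 held none.

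The genes next to Aqp8 were examined to see whether the region moved as a whole. The nearest tested gene before it was Lcmt1, a leucine carboxyl methyltransferase, 31933 bases away, at 8.19 and 9.24 CPM in sham and 11.4 and 10.6 CPM in TAC. On the log2 scale it differed by 0.34 ± 0.13 (adjusted p = 0.159 by edgeR). The next, Arhgap17, was at −0.65 ± 0.19 (edgeR adjusted p = 0.0869), and as the annotated ends of Lcmt1 and Arhgap17 overlap, reads there could count for either gene. On the other side the nearest tested genes were Kdm8 and Nsmce1, 1976672 and 1999636 bases away, at 0.07 ± 0.23 (edgeR adjusted p = 0.866) and 0.27 ± 0.12 (0.192). None of these 4 neighbours was called by edgeR, limma or DESeq2, and 2 had an unadjusted p under 0.05 (edgeR). Arhgap17 was called by edgeR without the low-count filter (adjusted p = 0.0288).

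The genes nearest to Aqp8 in pattern are listed as a description, since the rise of Aqp8 chose the set. Likeness was measured as the distance between mean-centred log2 CPM values over the 4 libraries, among 11179 tested genes whose mean CPM was 1 or more. The closest was Mgat5b, a glycosyltransferase, at a distance of 0.16, with 0.885 and 0.904 CPM in sham and 4.2 and 3.07 CPM in TAC. It was followed by Tnfrsf12a, the TWEAK receptor, at 0.191, Lrp8, a lipoprotein receptor, at 0.308, the natriuretic peptide gene Nppb at 0.31 and Nlrc3 at 0.378. Nppb stood at 163 and 171 CPM in sham and 760 and 471 CPM in TAC.

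Aqp4 (ENSMUSG00000024411), the water channel of the dystrophin complex, showed the largest fall among the members. It stood at 5.34 CPM in sham 1 and 7.40 in sham 2, against 0.968 in TAC 1 and 2.0 in TAC 2, on 169, 213, 27 and 49 counts. Both TAC libraries were low, and the lowest sham library was 2.67 times the highest TAC library. The TAC libraries differed from each other by 2.07 times, the widest gap between replicates of any member. The fit gave −2.11 ± 0.34 on the log2 scale (edgeR adjusted p = 0.0212), a 4.32-fold lower level. It stayed called in every alternative run, with adjusted p from 6.08e-06 to 0.0309, and 33 genes had a lower log2 fold change. In FPKM, Aqp4 stood at 1.20 and 1.60 in sham and 0.180 and 0.410 in TAC.

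Aqp7 (ENSMUSG00000028427), the glycerol channel, lies at chr4:41033074-41048139 on the minus strand, with 8 exons in its longest transcript. Its level was 9.70 CPM in sham 1 and 11.1 in sham 2, against 4.66 in TAC 1 and 6.50 in TAC 2, on 307, 318, 130 and 159 counts. The groups did not overlap, and the lowest sham library was 1.49 times the highest TAC library. Its log2 fold change came to −0.90 ± 0.19 (edgeR adjusted p = 0.0431), a 1.86-fold lower level. The call rested on single libraries, since it was lost without TAC 1 (log2 fold change −0.67, edgeR adjusted p = 0.114) and without sham 2 (−0.80, 0.0724). Over all alternatives the adjusted p ranged from 0.00233 to 0.114.

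Aqp1 (ENSMUSG00000004655), the endothelial water channel, lies at chr6:55336432-55348555 on the plus strand, with 4 exons. It was the most abundant member per length in every library (in FPKM), and stood at 130 CPM in sham 1 and 123 in sham 2, against 91.2 in TAC 1 and 122 in TAC 2, on 2544 to 4115 counts. TAC 2 lay within 1.01 times of the lower sham library, and only TAC 1 stood apart. The log2 fold change of −0.25 ± 0.13 was not called (edgeR adjusted p = 0.256). It was −0.47 without TAC 2, where it was called (edgeR adjusted p = 0.0212), and −0.05 without TAC 1 (0.830), so its size was set by which TAC library was used. Its closest genes by the same measure of likeness were Adgrl1, Abracl, Tmem104, Abhd6 and S100a11, at distances of 0.0271 to 0.0472. The 4 values of Aqp1 themselves differed by no more than 1.43 times.

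Aqp11 (ENSMUSG00000042797), the intracellular member, lies at chr7:97724006-97738289 on the minus strand, on the same chromosome as Aqp8. It had the fewest counts of the members in every library and was at 1.64 CPM in sham 1 and 1.29 in sham 2, against 0.861 in TAC 1 and 0.900 in TAC 2. These values rested on 52, 37, 24 and 22 counts. The Poisson interval of sham 2, 0.905 to 1.77 CPM, overlapped those of both TAC libraries, 0.552 to 1.28 and 0.564 to 1.36 CPM. The log2 fold change of −0.74 ± 0.34 was not called (edgeR adjusted p = 0.215), and no alternative called it.

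**Figure D2:**
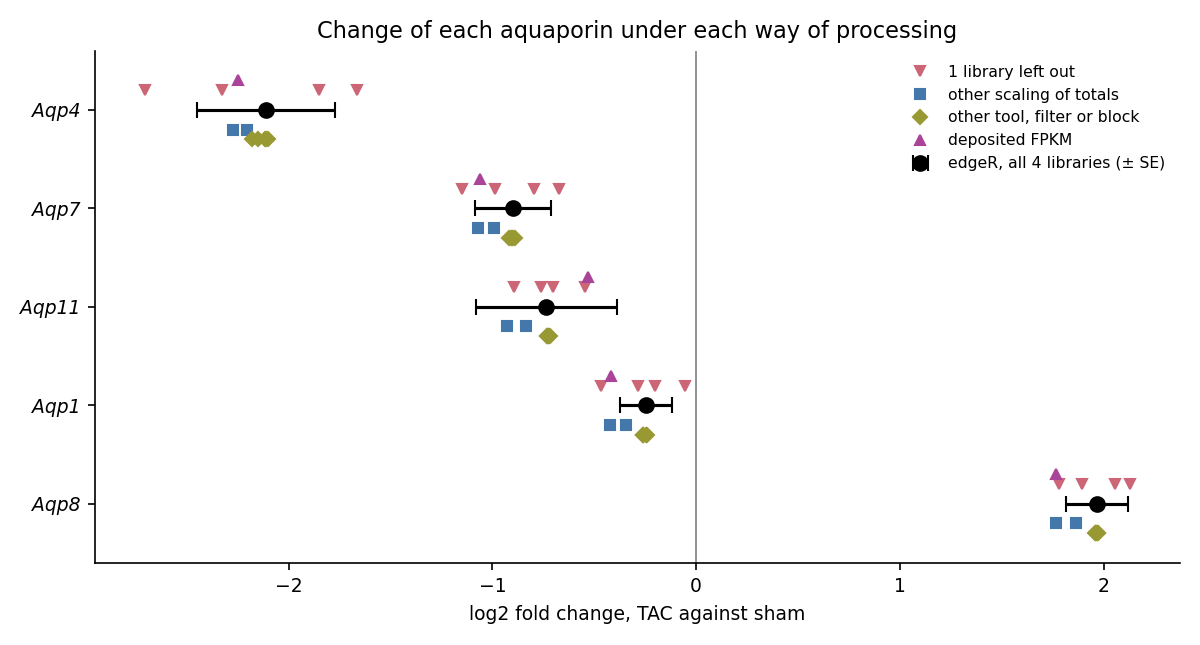
Log2 fold change of each aquaporin, TAC against sham, with the edgeR value and its SE in black and the value under each alternative as coloured symbols. Every symbol of Aqp8 lies above 1.7 and every symbol of Aqp4 below −1.6, while Aqp1 comes close to 0 when TAC 1 is left out.

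The scaling of the libraries shifted the members together. With totals in place of TMM factors, the scaling that the study names, the median of all genes moved from −0.01 to −0.20. Aqp8 then stood at 1.77, Aqp1 at −0.42, Aqp7 at −1.07, Aqp11 at −0.93 and Aqp4 at −2.28 on the log2 scale. The order of the 5 changes and their directions were the same as with TMM, and Aqp4 (adjusted p = 0.0135) and Aqp7 (0.0367) were again called by edgeR, as were 4.22% of all genes.

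Ratios within a library do not depend on scaling, and describe the makeup of aquaporin mRNA. In FPKM, Aqp8 was 1.14 and 0.888 times Aqp7 in the sham libraries, and 9.81 and 5.53 times Aqp7 in TAC. Relative to Aqp4, Aqp8 was 3.99 and 2.53 times as high in sham and 87.2 and 35.0 times as high in TAC. Aqp1 exceeded Aqp8 by 11.3 and 12.0 times in sham but by 1.92 and 3.25 times in TAC. All 3 of these ratios hold Aqp8, whose rise chose the set, so they are a description. Aqp7 was 3.51 and 2.84 times Aqp4 in sham and 8.89 and 6.34 times Aqp4 in TAC. The ratio of Aqp7 to Aqp4 was thus higher in both TAC libraries, and this difference was not tested.

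Of the summed FPKM of the 5 members, Aqp8 took 7.37% and 6.84% in sham and 32.8% and 22.3% in TAC. The share of Aqp1 was 83.5% and 82.1% in sham and 63.0% and 72.5% in TAC, and that of Aqp7 was 6.47% and 7.71% against 3.34% and 4.03%. The sum itself was 65.0 and 59.0 FPKM in sham and 47.9 and 64.5 FPKM in TAC, so the groups overlapped in the total. On CPM, which does not account for length, the mean share of Aqp8 was 4.06% in sham and 17.7% in TAC (7.10% and 27.5% on FPKM), and that of Aqp4 was 4.24% and 1.05% (2.28% and 0.506% on FPKM). By FPKM, the order in sham was Aqp1 first, then Aqp7 and Aqp8, which changed places between the sham libraries, then Aqp4 and Aqp11. In TAC it was Aqp1, Aqp8 and Aqp7, with Aqp4 and Aqp11 changing places between the libraries. The order differed in CPM, where Aqp4 was above Aqp8 in sham 2 (7.40 against 5.77 CPM). Aqp4 was also above Aqp11 in CPM in both TAC libraries. Counts and FPKM together imply the length that was used for each gene. It was 2627 bases for Aqp1 in each library, the length of its only annotated transcript, and 1481 to 1485 bases for Aqp8, where the longest transcript has 1487. For Aqp11 it ranged from 2453 to 3713 bases, beyond the rounding of FPKM, so the FPKM of Aqp11 is not on a single scale. For Aqp4 it ranged from 4670 to 4931 bases, with the sham libraries apart by more than the rounding, so the FPKM ratios to Aqp4 carry a smaller difference of the same kind. The Aqp11 libraries overlapped in FPKM, at 0.520 and 0.360 in sham and 0.240 and 0.370 in TAC.

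**Figure D3:**
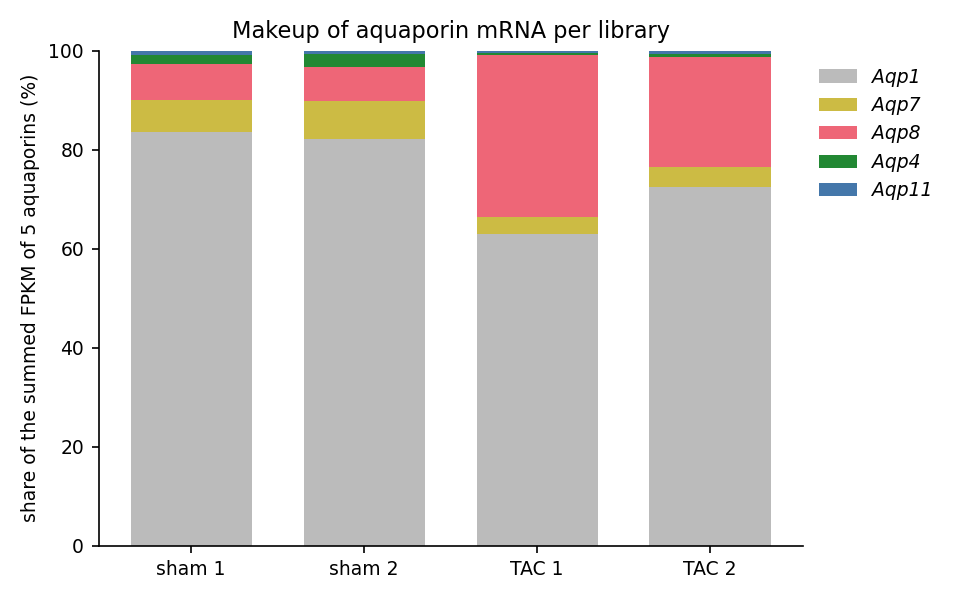
Share of each member in the summed FPKM of the 5 aquaporins, 1 bar per library. Aqp8 takes about 7% of each sham bar and 32.8% and 22.3% of the TAC bars, and Aqp1 remains the largest part in all 4.

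The other 7 aquaporins were at or near the limit of detection, and none passed the low-count filter. Mip, the lens channel, Aqp2 and Aqp3, channels of the kidney collecting duct, and Aqp12 had 0 counts in every library, which allows a level of up to 0.0948 to 0.123 CPM per library (3 counts). Aqp6 had 2 counts in each of sham 1, sham 2 and TAC 1, and 4 in TAC 2. Aqp9, a glycerol channel of the liver, had 2 counts in sham 1 and 2 in TAC 2, and Aqp5, the channel of secretory glands, had 4 counts in sham 2 and 0 elsewhere. No rise of another family member like that of Aqp8 was detectable at this depth. All counts of the 12 aquaporins were whole numbers, and in the annotation 1 gene overlaps a member, an antisense transcript of Aqp4 that is not in the tables used here.

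Endothelial cells are a known site of Aqp1, so their markers were set beside the members. All 15 had a log2 fold change below 0, with a median of −0.63. DESeq2 called 8 of them and limma 5, and edgeR called 4, Cdh5, Egfl7, Esam and Fabp4. The number called was 2 without TAC 1, 3 without sham 1, 12 without sham 2 and 14 without TAC 2, and 1 of the 15 was above 0 without sham 1. Their summed level was 845 and 707 CPM in sham and 407 and 559 CPM in TAC, lowest in TAC 1. Aqp1, Aqp4, Aqp7 and Aqp11 were lowest in TAC 1 too, Aqp11 by little (0.861 CPM, against 0.900 CPM in TAC 2). Per 1000 CPM of this sum, Aqp1 was at 154 and 173 in sham and 224 and 218 in TAC, so it was higher in TAC on this basis. Aqp7 was at 11.5 and 15.6 in sham and 11.5 and 11.6 in TAC, and the groups overlapped. Aqp4 remained lower, at 6.32 and 10.5 in sham against 2.38 and 3.58 in TAC. Aqp8 went from 7.67 and 8.16 in sham to 65.9 and 37.7 in TAC. These values are a description, as the rise of Aqp8 chose the set and the marker sum was lower in TAC. The part of endothelial RNA in the values of Aqp1, Aqp4, Aqp7 and Aqp11 was not tested.

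Markers of fat cells bear on Aqp7, and they were close to absent. Adipoq, Plin1, Retn, Lep and Ucp1 had 0 counts in all libraries, and no marker of the list but Fabp4 exceeded 0.123 CPM. Fabp4, a fatty acid carrier that capillary endothelium also makes, was at 151 and 156 CPM in sham and 67.5 and 91.7 CPM in TAC (log2 fold change −0.95 ± 0.13, edgeR adjusted p = 0.0148). Markers of red blood cells, which carry Aqp1, gave groups that overlapped. The summed level of 9 of them in the tables was 99.8 and 88.9 CPM in sham and 55.8 and 132 CPM in TAC, with 3 of 6 tested genes below 0 and 1 called. Without TAC 1, 5 of the tested genes were above 0 and 3 were called, and without TAC 2 all 6 were below 0 and 3 were called. Per 1000 CPM of the cardiomyocyte markers, Aqp8 was at 0.0803 and 0.0645 in sham and 0.303 and 0.250 in TAC, and Aqp4 at 0.0662 and 0.0827 in sham and 0.0109 and 0.0238 in TAC. The marker sum varied little between the libraries, so these values follow the CPM of both genes, and those of Aqp8 are a description.

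Marker lists of other cell types were counted in the same way. All 15 fibroblast markers had a log2 fold change below 0 (median −0.82), with 4 called by edgeR, 4 by limma and 6 by DESeq2. Their sums were 597 and 415 CPM in sham and 239 and 330 CPM in TAC. All 12 mural markers were below 0 (median −0.77), with 2 called by edgeR, 3 by limma and 3 by DESeq2, and with sums of 788 and 820 against 455 and 599.8 CPM. The 15 macrophage markers were below 0 as well (median −0.85), with 0 called by edgeR or limma, 1 by DESeq2 and 6 at an unadjusted p under 0.05, and with sums of 152 and 77.0 against 42.5 and 78.1 CPM. These counts moved with single libraries, to 0 fibroblast and 0 mural genes called without TAC 1, to 9 and 10 without TAC 2, to 10 and 4 without sham 2 and to 3 and 4 without sham 1. The macrophage count was 9 without sham 2 and 6 without TAC 2. Without the low-count filter edgeR called 14 endothelial, 10 fibroblast, 10 mural and 6 macrophage markers. Of 8 Schwann cell and 8 mesothelial markers, 3 and 5 could be tested and 0 were called by edgeR, limma or DESeq2 or had an unadjusted p under 0.05. The Schwann cell sum was 4.96 and 4.07 CPM in sham and 2.62 and 3.52 CPM in TAC, and the mesothelial sum was 9.67 and 5.91 against 4.81 and 10.1 CPM. Of the 12 cardiomyocyte markers, 8 were above 0 (median 0.06) and 1 was called, Myh7, the beta-myosin heavy chain, and with total-count scaling 5 were above 0 and 2 were called. The number of cardiomyocyte markers called was 4 by limma, 5 by DESeq2, 5 by edgeR without the low-count filter and 4 by edgeR without TAC 2.

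The partners of the channels were then set beside them. In the dystrophin and syntrophin complex that anchors aquaporin 4, 9 of 12 genes were higher in TAC and 3 lower, with a median of 0.16. The number called by edgeR was 1, and it was 0 with total-count scaling, with totals that leave out mitochondrial genes, without sham 1 and without TAC 1. It was 2 without TAC 2, 4 without the low-count filter and 2 by DESeq2. Dmd, dystrophin itself, was at 0.02 ± 0.10 (edgeR adjusted p = 0.913). None of the 12 had a fall near that of Aqp4, the lowest being Sntb2 at −0.66 ± 0.21 (edgeR adjusted p = 0.0997). With total-count scaling 5 of the 12 were above 0.

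Of 16 genes of glycerol and triglyceride turnover, which supply or use the glycerol that Aqp7 carries, 1 was called. Lipe, hormone-sensitive lipase, was lower at 29.5 and 31.1 CPM in sham and 15.9 and 21.2 CPM in TAC (−0.71 ± 0.14, edgeR adjusted p = 0.0364), and was not called without TAC 1 (0.0647). Pnpla2, the lipase that starts triglyceride breakdown, was at −0.11 ± 0.08 (edgeR adjusted p = 0.371). Gk, glycerol kinase, was at 0.04 ± 0.10 (0.839). Without TAC 2, 3 genes of the list were called. The list had a median of 0.03, with 9 genes above 0 and 7 below, and 2 above 0 with total-count scaling.

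Hydrogen peroxide handling genes were examined because Aqp8 passes this molecule. With TMM, 15 of 16 were above 0 with a median of 0.19, but the median was 0.00 with total-count scaling, where all genes had a median of −0.20. No gene of the list was called by edgeR with the low-count filter, TMM, all 4 libraries and no block, or by limma, 1 was called by DESeq2 and 7 had an unadjusted p under 0.05. With edgeR, 2 were called without the low-count filter and 1 without sham 2. Prdx3, the mitochondrial peroxiredoxin, was at 191 and 188 CPM in sham and 221 and 210 CPM in TAC (0.19 ± 0.07, edgeR adjusted p = 0.146), and Cat, catalase, was at 0.19 ± 0.09 (0.236).

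Among 22 tested genes of cell volume and the osmotic response, 10 were above 0 and 12 below, with a median of −0.05 (5 above 0 with total-count scaling). Slc38a2, a sodium-coupled amino acid transporter that cells raise under osmotic and amino acid stress, was the single gene called by edgeR with the low-count filter, TMM, all 4 libraries and no block. The number called was 2 with totals that leave out mitochondrial genes, 3 without sham 2, 6 without the low-count filter, 2 by limma and 4 by DESeq2. Slc38a2 stood at 216 and 190 CPM in sham and 509 and 417 CPM in TAC (1.19 ± 0.11, edgeR adjusted p = 0.00476) and was called in every alternative run. Nfat5, the transcription factor of the osmotic response, was at −0.44 ± 0.16 (edgeR adjusted p = 0.134). The taurine carrier Slc6a6 was at −0.03 ± 0.12 (0.883) and the volume-regulated anion channel gene Lrrc8a at 0.21 ± 0.10 (0.218).

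**Figure D4:**
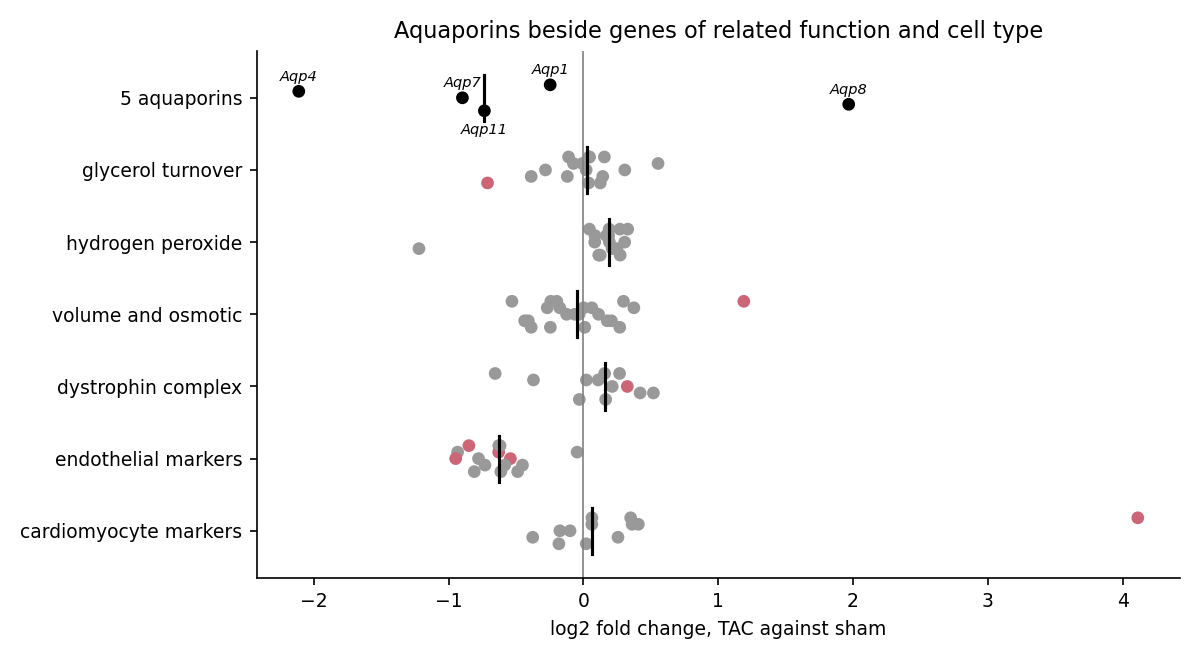
Log2 fold change, TAC against sham, of the 5 aquaporins (black, named) and of the tested genes of each list, in red where called by edgeR at an adjusted p under 0.05 and in grey otherwise. Vertical bars are list medians. Aqp4 at −2.11 lies below the range of the glycerol, hydrogen peroxide, volume and dystrophin lists. Aqp8 at 1.97 lies above these lists, which is a description, as its rise chose the set. Myh7 of the cardiomyocyte list lies higher, at 4.11.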

How the data were processed

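The deposited tables of the authors give, per gene and library, an expected count, which is an estimate and may be fractional, and an FPKM value. The submitters' processing notes name Bowtie2 2.2.8, StringTie 1.3.1 and the build mm10, with no roles; the sources used here do not name the counting program or strand setting. Groups came from the sample titles, and replicates were separate hearts per the methods of the study.

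Expected counts were rounded, filtered with filterByExpr, scaled by TMM and tested with the quasi-likelihood test of edgeR 4.0.16 in R 4.3.3, TAC against sham, without a block. P-values were adjusted by Benjamini-Hochberg over 12499 genes, and genes under 0.05 were called. The SE is the log2 fold change over the square root of F. Alternatives used limma 3.58.1, DESeq2 1.42.0, other scalings, no filter, a block, and 1 library left out. At n = 2 per group no exact permutation test can reach a p lower than 0.333, so each p rests on the spread pooled over genes.

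The members and gene lists were chosen with earlier results of these data known. Named genes were the members, the other aquaporins, called list genes (at most 6 per list) with a few uncalled ones picked for their function after values were seen, 2 tested neighbours of Aqp8 per side, and the 5 genes most like Aqp8 and Aqp1. Coordinates are from GENCODE M21 (GRCm38) and promoter windows from RefSeq (GRCm38.p6), where Aqp1, Aqp7, Aqp8 and Aqp11 were matched by symbol. Some list genes are counted but not reported by name here.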

Additional observations from a re-analysis of the deposited data

How the results depend on the processing

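Across the alternatives no aquaporin changed its direction. Without the filter on low counts, 1676 genes in all were called. Over fits that left out 1 library, the number of genes called ranged from 301 (without TAC 1) to 1336 (without TAC 2), and the number of the 4 tested aquaporins called from 1 to 3. In the same fits Aqp1 ranged from −0.47 (called without TAC 2) to −0.053 and Aqp7 from −1.15 to −0.67 (not called without TAC 1 or without sham 2). Aqp8 was at 1.77 with total-count scaling and at 1.77 as a log2 ratio of mean FPKM, and Aqp11 at −0.53 as a ratio of mean FPKM, where its implied length differed between libraries. DESeq2 gave no adjusted p for Aqp11. Of the values of other named genes, list medians and shares of FPKM under the alternatives, 230 kept their call or stayed within the replicate spread, 30 moved beyond it, 12 lost a call and 2 gained one. For other causes of these moves, the cause was not tested.

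Samples with the same replicate number did not deviate together (correlation of deviations −0.24), and the labels do not pair them, although the methods of the study speak of pairs of sham and TAC mice without tying them to these numbers. With the replicate block 566 genes were called, with Aqp4 (adjusted p = 0.00216) and Aqp7 (0.0232) among them. The call of Egfl7 was not kept with it (adjusted p = 0.0628), and 0 genes of the dystrophin complex were called. A crossed pairing as the block, added after seeing the data, called 2131 genes and 2 of the 4 tested aquaporins, and 14 endothelial, 10 fibroblast, 9 mural, 9 macrophage, 5 dystrophin complex, 6 cell volume, 4 hydrogen peroxide and 5 cardiomyocyte genes and 1 neighbour of Aqp8, Arhgap17.

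Aqp11 had 22 to 52 counts per library, the fewest of the 5 members, and the other 7 aquaporins had 0 to 4.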
